A study of Homo sapiens with 6 samples.

Results

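The expression of 9 genes that write or read histone acetylation was examined in Kasumi-1 cells incubated with I3. The genes were EP300, CREBBP, KAT2A, KAT2B, KAT5, KAT6A, KAT7, BRD2 and BRD3. They were found by their symbols in the deposited mRNA-seq table, where each of the 9 matched 1 of 29810 rows. Kasumi-1 cells are an established AML line with the t(8;21) translocation, which fuses RUNX1 to RUNX1T1. The control group held 3 libraries of cells given the vehicle DMSO, and the I3 group held 3 libraries of cells given 0.25 μM I3, an inhibitor of histone deacetylases (HDACs). The labels give 48 h for both groups. All 6 libraries come from this 1 cell line, and the labels do not say whether the replicates were separate cultures, so p-values measure only the spread between these libraries. The values are FPKM, fragment counts scaled to the length of the gene and the size of the library. The library size in this scaling was 17500320 to 18193373 reads.

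Histone acetyltransferases transfer an acetyl group from acetyl-CoA to lysines of histone tails and of other proteins, and HDACs remove it. Acetylated lysines are then bound by bromodomains, among them those of the BET proteins, which recruit factors that release paused RNA polymerase II. An HDAC inhibitor acts on the enzymes of removal, so the mRNA levels of the writers and readers are a separate measurement from acetylation itself, which was not measured in these libraries.

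The libraries were compared with markers of the line and of other cell types. All 8 marker genes listed for Kasumi-1 cells were detected, with MPO at 7740 to 8612 FPKM, KIT at 198 to 225 FPKM, CD34 at 28.9 to 38.8 FPKM and RUNX1T1 at 14.1 to 17.0 FPKM. The 5 T and B lymphocyte markers in the rows used here summed to 3.51 to 5.36 FPKM per library, led by CD8A at 1.65 to 2.84 FPKM. The 4 erythroid and megakaryocyte markers summed to 0.111 to 0.360 FPKM, with PPBP at 0 in all libraries. Of 3 stromal and epithelial markers, KRT18 was at 0 and COL1A1 did not exceed 0.0115 FPKM, whereas EPCAM was at 28.2 to 31.6 FPKM in control and I3 libraries alike.

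I3 did not change the mRNA level of any of the 9 genes by a detectable amount. All 9 passed the minimum mean of 0.5 FPKM and were tested with limma on log2(FPKM + 0.5) beside 12960 genes in all. None passed an adjusted p of 0.05 with a log2 fold change of 0.58, and 0 of the 12960 tested genes did (0%). These are the thresholds of the study, which used another test, DESeq, and reports both lower and higher genes after I3. Those genes were not compared with these fits. At an unadjusted p under 0.05, 0 of the 9 and 639 of all tested genes (4.93%) passed. With voom, the model of limma for counts, run on rebuilt reads, 0 genes passed the adjusted p and 0 of the 9 passed the unadjusted p. The log2 fold changes of the 9 genes lay between -0.022 and 0.084, with a median of 0.025 against 0.011 over all tested genes. The estimate was above 0 for 7 of the 9 genes and for 54.2% of all tested genes. In none of the 9 were all I3 values on one side of all control values, which was so for 9.7% of all tested genes. The 95% interval of the log2 fold change lay within 0.58 in either direction for all 9 genes and for 81.6% of all tested genes, and the outermost bounds among the 9 were -0.29 and 0.33, both of KAT2B. In RNA from whole cultures, fewer cells of a type and less RNA per cell cannot be told apart.

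**Figure D1:**
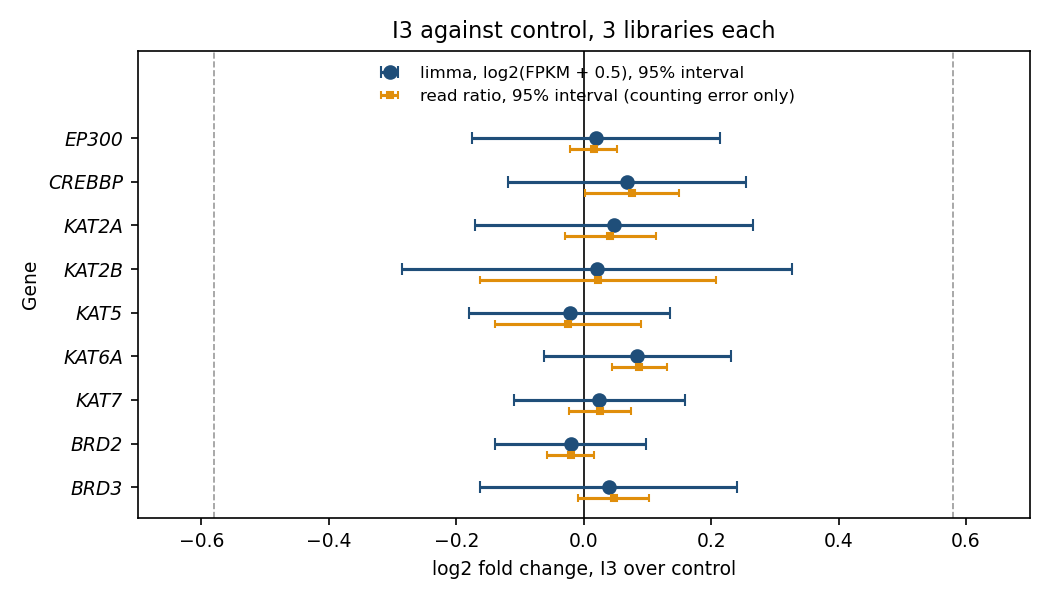
log2 fold change of I3 over control for each of the 9 genes (horizontal axis). Circles show the limma estimate with its 95% interval and squares show the ratio of summed reads with an exact 95% interval for counting error only. Dashed lines stand at 0.58 in either direction, and every limma interval crosses 0 and ends between -0.29 and 0.33.

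The 9 genes differed far more among themselves than between the groups. BRD2 had the highest mean over the 6 libraries, 30.0 FPKM, and KAT2B the lowest, 1.59 FPKM, a ratio of 18.9. Between them came EP300 (18.1 FPKM), KAT2A (15.8 FPKM), BRD3 (14.3 FPKM), KAT6A (13.6 FPKM), KAT7 (10.7 FPKM), KAT5 (6.24 FPKM) and CREBBP (3.57 FPKM). FPKM is a level per length, so these genes can be ranked against each other. Of the 8 neighbouring pairs in this order, 5 had ranges over the 6 libraries that did not overlap. The ranges overlapped for EP300 and KAT2A, for KAT2A and BRD3 and for BRD3 and KAT6A. EP300 was nevertheless above KAT2A within each of the 6 libraries, whereas KAT2A was above BRD3 in 4 of 6 and BRD3 above KAT6A in 4 of 6. Among all tested genes, BRD2 was higher than 90.0% of them in mean level, EP300 than 82.3%, CREBBP than 40.2% and KAT2B than 23.3%.

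The order rests on the length by which each gene was divided. The values of 8 of the 9 genes gave whole reads with the summed exon length of GENCODE release 29, for example 12500 bases for EP300. KAT6A did not, and its values were whole at a length of 11852 bases, against 24175 bases of exon in that release, so the annotation behind the table differed for this gene. Divided by the longest coding transcript in place of all exons, a choice made after the data had been seen, BRD2 came to 44.9, EP300 to 23.6, KAT2A to 19.2, KAT6A to 17.4, BRD3 to 17.3, KAT7 to 13.0, KAT5 to 10.1, CREBBP to 5.12 and KAT2B to 1.85 FPKM. Only KAT6A and BRD3 changed places under this length.

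**Figure D2:**
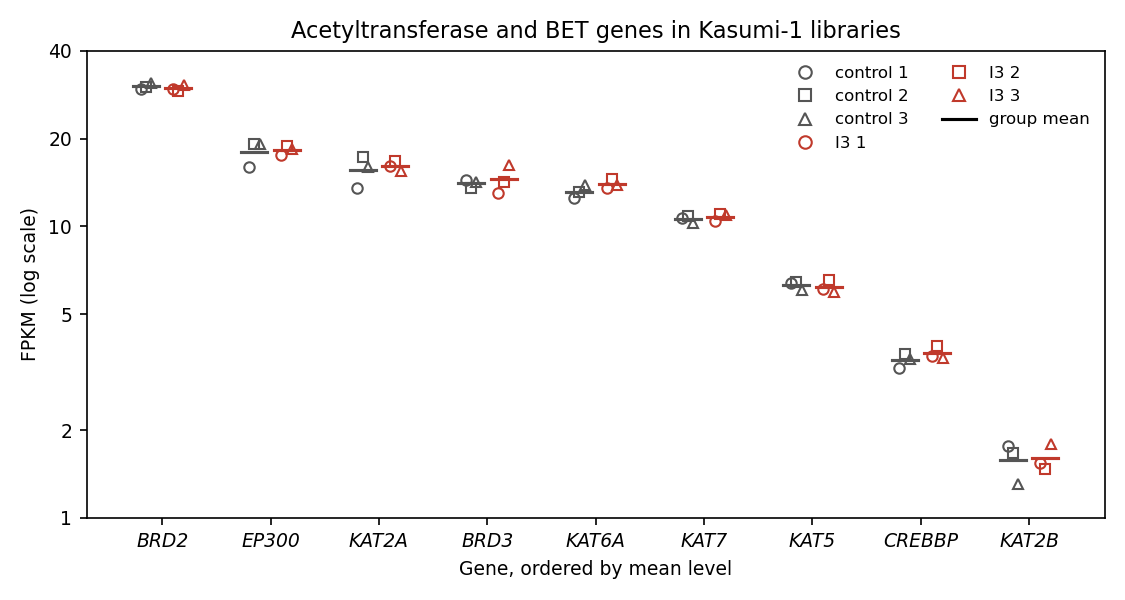
FPKM of the 9 genes (vertical axis, log scale) in each library, with grey symbols for control 1 to 3, red symbols for I3 1 to 3 and bars for the group means. The genes descend from BRD2 at 29.1 to 31.0 FPKM to KAT2B at 1.31 to 1.80 FPKM, and the 2 groups overlap in each gene.

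EP300 and CREBBP encode p300 and CBP, closely related coactivators that acetylate histones and transcription factors at enhancers and promoters. EP300 (chromosome 22, from 41091786 to 41180079 on GRCh38) was at 15.9, 19.1 and 19.1 FPKM in control 1, 2 and 3 and at 17.5, 18.8 and 18.4 FPKM in I3 1, 2 and 3. Control 1 was the lowest of the 6 libraries, with the I3 values inside the range of the controls. The means were 18.0 ± 1.84 FPKM (SD, n = 3) and 18.2 ± 0.667 FPKM (SD, n = 3). Its log2 fold change was 0.019 (95% interval -0.18 to 0.21, SE 0.0831, adjusted p = 0.998 from limma), and without control 1 it was -0.066.

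CREBBP (chromosome 16, from 3725054 to 3880726) was at 3.26, 3.66 and 3.52 FPKM in the controls and at 3.60, 3.88 and 3.52 FPKM after I3. I3 2 was the highest and control 1 the lowest library, and the groups overlapped. The log2 fold change was 0.067 (95% interval -0.12 to 0.25, SE 0.0796, adjusted p = 0.998 from limma). Its 2854 reads in control and 3056 reads in I3 libraries gave a ratio of 1.05 with an exact 95% interval of 1.001 to 1.11. Intervals of read ratios cover counting error only, and the wider limma interval also holds the spread between libraries.

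Within a library EP300 exceeded CREBBP by 4.88, 5.22 and 5.44 times in the controls and by 4.86, 4.84 and 5.23 times after I3. The ratio is free of the scaling of the library. On the log2 scale it was 2.37 ± 0.0801 (SD, n = 3) in control and 2.31 ± 0.0622 (SD, n = 3) in I3 libraries, a difference of -0.057 (two-sided exact permutation p = 0.3, adjusted p = 0.667 over 5 ratios). With 3 libraries against 3, the smallest p this test allows is 0.1.

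KAT2A (GCN5) and KAT2B (PCAF) are the alternative catalytic subunits of the SAGA and ATAC coactivator complexes. KAT2A (chromosome 17, from 42113108 to 42121358) was at 13.6, 17.3 and 15.9 FPKM in the controls and at 16.1, 16.7 and 15.4 FPKM after I3. Both the lowest and the highest value were those of control libraries. The means were 15.6 ± 1.91 FPKM (SD, n = 3) and 16.1 ± 0.650 FPKM (SD, n = 3), with a log2 fold change of 0.047 (adjusted p = 0.998 from limma, with an SE of 0.0929) that turned to -0.047 without control 1.

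KAT2B (chromosome 3, from 20040023 to 20154404) was at 1.76, 1.67 and 1.31 FPKM in the controls and at 1.54, 1.47 and 1.80 FPKM after I3. The libraries of the 2 groups were mixed in their order, with I3 3 highest and control 3 lowest. The log2 fold change of 0.020 had the widest interval of the 9 genes, -0.29 to 0.33 (adjusted p = 0.999 from limma), and the gene rested on 129 to 184 reads per library. KAT2A exceeded KAT2B by 7.71, 10.4 and 12.2 times in the controls and by 10.4, 11.4 and 8.59 times after I3. The range of the controls enclosed the I3 values (two-sided exact permutation p = 0.9, adjusted p = 0.9 over 5 ratios).

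KAT5, KAT6A and KAT7 belong to the MYST family. KAT5 (TIP60) is the catalytic subunit of a complex that acts in transcription and DNA repair, KAT6A (MOZ) is a coactivator of hematopoietic stem cell genes and a partner in fusions found in AML, and KAT7 (HBO1) acetylates histones at genes and at origins of replication. KAT6A (chromosome 8, from 41929479 to 42052026) was at 12.5, 13.1 and 13.9 FPKM in the controls and at 13.5, 14.5 and 13.9 FPKM after I3. Control 3 lay above I3 1, and the remaining controls lay below all I3 libraries. The means were 13.2 ± 0.669 FPKM (SD, n = 3) and 14.0 ± 0.476 FPKM (SD, n = 3). KAT6A had a log2 fold change of 0.084 (95% interval -0.062 to 0.23, SE 0.0626, unadjusted p = 0.218 and adjusted p = 0.998 from limma). It was 0.040 after removal of the trend with GC content and 0.051 without control 1. The ratio of its 8907 to 8254 reads was 1.06 with an exact 95% interval of 1.03 to 1.09, so the difference exceeded counting error but not the spread between libraries. CREBBP and KAT6A were the 2 genes whose read ratio interval excluded 1, and the share of all tested genes with such an interval was not computed. Libraries of the same group already differed beyond counting error (chi-square per degree of freedom of 4.36 to 13.9). This count is therefore not a result about these genes.

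KAT7 (chromosome 17, from 49788555 to 49835030) was at 10.6, 10.8 and 10.3 FPKM in the controls and at 10.4, 11.0 and 10.9 FPKM after I3. KAT5 (chromosome 11, from 65711996 to 65719604) was at 6.37, 6.44 and 6.05 FPKM in the controls and at 6.11, 6.52 and 5.94 FPKM after I3. Both genes varied little, and the highest library exceeded the lowest by 1.07 times for KAT7 and 1.10 times for KAT5. The log2 fold changes were 0.025 (standard error 0.0574) and -0.022 (standard error 0.0674), each with an adjusted p of 0.998 from limma. The KAT6A to KAT7 ratio was 1.18, 1.21 and 1.35 in control 1 to 3 and 1.30, 1.32 and 1.27 in I3 1 to 3. For KAT5 to KAT7 the ratio was 0.598, 0.596 and 0.588 in control 1 to 3 and 0.585, 0.594 and 0.544 in I3 1 to 3. The groups overlapped in both ratios, with two-sided exact permutation p-values of 0.4 and 0.2 and an adjusted p of 0.667 for both.

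BRD2 and BRD3 encode BET proteins, which bind acetylated histones through paired bromodomains and recruit the transcription machinery. BRD2 (chromosome 6, from 32968660 to 32981505) was at 29.6, 30.0 and 31.0 FPKM in the controls and at 29.7, 29.1 and 30.5 FPKM after I3. Its values were the most even of the 9 genes, with a highest to lowest ratio of 1.07 over the 6 libraries and the narrowest interval. The means were 30.2 ± 0.752 FPKM (SD, n = 3) and 29.8 ± 0.70 FPKM (SD, n = 3), and the log2 fold change was -0.020 (95% interval -0.14 to 0.099, SE 0.0506, adjusted p = 0.998 from limma). On the scale of folds this interval runs from 0.908 to 1.07.

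BRD3 (chromosome 9, from 134030305 to 134068535) was at 14.4, 13.5 and 14.1 FPKM in the controls and at 13.0, 14.2 and 16.2 FPKM after I3. The lowest and the highest library were both I3 libraries, I3 1 and I3 3, and the SD was 0.449 FPKM (n = 3) in control and 1.64 FPKM (n = 3) in I3 libraries. Its log2 fold change was 0.039 (adjusted p = 0.998 from limma, with an SE of 0.0861) and turned to -0.043 without I3 3. BRD2 exceeded BRD3 by 2.05, 2.21 and 2.19 times in the controls and by 2.29, 2.04 and 1.88 times after I3 (two-sided exact permutation p = 0.6, adjusted p = 0.75 over 5 ratios).

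**Figure D3:**
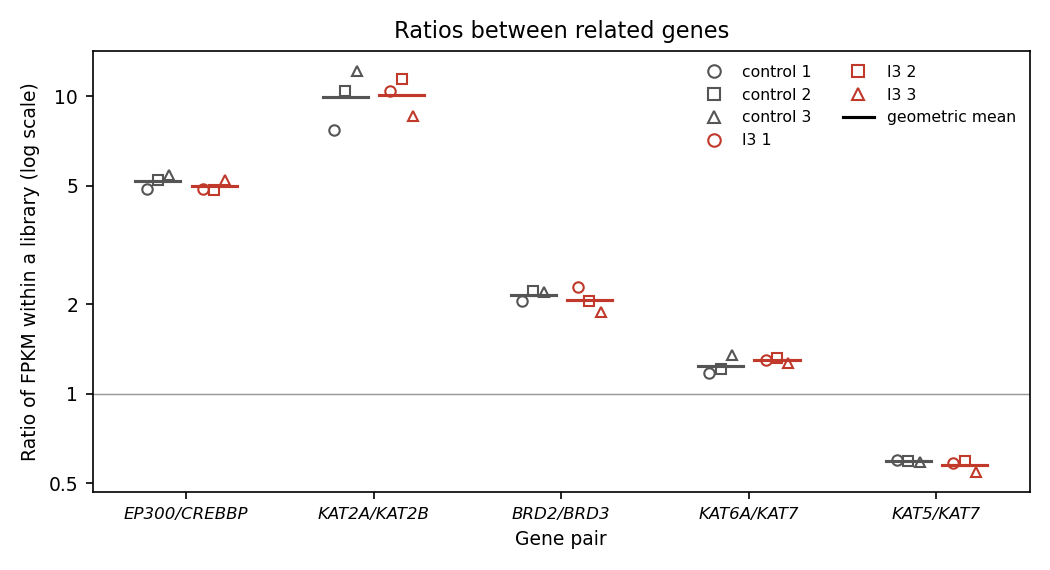
Ratio of FPKM of the first to the second gene of each pair within a library (vertical axis, log scale), with grey symbols for control 1 to 3, red symbols for I3 1 to 3 and bars for geometric means. The groups overlap in all 5 pairs, from KAT2A/KAT2B at 7.71 to 12.2 down to KAT5/KAT7 at 0.544 to 0.598.

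The 250 bases before the first RefSeq start of each BET gene are shown because this is the class with the highest summed level and neither stretch holds a base of the exons that GENCODE release 29 gives its gene. The BRD3 stretch nevertheless lies inside the bounds of the gene given above. They come from the RefSeq promoter table (GRCh38.p14), chr6:32968344-32968593 on the plus strand for BRD2 and chr9:134068027-134068276 on the minus strand for BRD3. Capitals mark GGGCGG on either strand, where overlapping matches run together.
BRD2: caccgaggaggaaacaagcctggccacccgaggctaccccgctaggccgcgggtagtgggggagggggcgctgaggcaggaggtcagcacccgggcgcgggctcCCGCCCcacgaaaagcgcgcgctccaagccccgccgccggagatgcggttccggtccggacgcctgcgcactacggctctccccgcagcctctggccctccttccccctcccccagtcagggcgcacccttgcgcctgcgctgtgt
BRD3: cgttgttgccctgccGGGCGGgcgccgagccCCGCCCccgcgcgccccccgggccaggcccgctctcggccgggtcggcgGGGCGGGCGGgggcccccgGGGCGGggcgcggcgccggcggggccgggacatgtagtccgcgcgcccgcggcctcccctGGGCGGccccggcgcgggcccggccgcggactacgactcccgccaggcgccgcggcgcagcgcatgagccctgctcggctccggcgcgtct
The BRD2 stretch had 74.0% G and C, 27 CpG and 1 match, and the BRD3 stretch had 86.8% G and C, 48 CpG and 6 matches. Over all 35116 stretches of this length in the table, the medians were 58.0% and 11 CpG, and 42.6% held GGGCGG. Neither stretch held TATAAA (10.7% of all stretches) or CCAAT (32.0%), searched on both strands. These are descriptions of sequence, with no measurement of binding in these data.

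Summed by class, the BET genes made up 37.3% to 40.7% of the FPKM of the 9 genes in a library, the MYST genes 26.2% to 27.5%, EP300 with CREBBP 17.7% to 19.7% and KAT2A with KAT2B 14.2% to 16.4%. The sum of all 9 was 108, 116 and 115 FPKM in control 1, 2 and 3 and 111, 116 and 117 FPKM in I3 1, 2 and 3. Control 1 held the lowest value of 4 of the 9 genes (EP300, CREBBP, KAT2A and KAT6A), and I3 2 held the highest of 4. Over the whole table, leaving out control 1 raised the genes at an unadjusted p under 0.05 from 639 to 1420. The deviation of a library from the mean of each gene followed GC content, with a rank correlation over 12939 genes from -0.446 in I3 3 and -0.313 in control 1 to 0.446 in control 2, and removal of this trend moved the log2 fold changes of all 9 genes. Those of EP300, KAT2B and KAT7 turned to -0.013, -0.020 and -0.011. KAT6A came to 0.040, BRD3 to 0.083, KAT2A to 0.066, CREBBP to 0.049, BRD2 to -0.029 and KAT5 to -0.0049. The part of either in the member values was not tested.

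**Figure D4:**
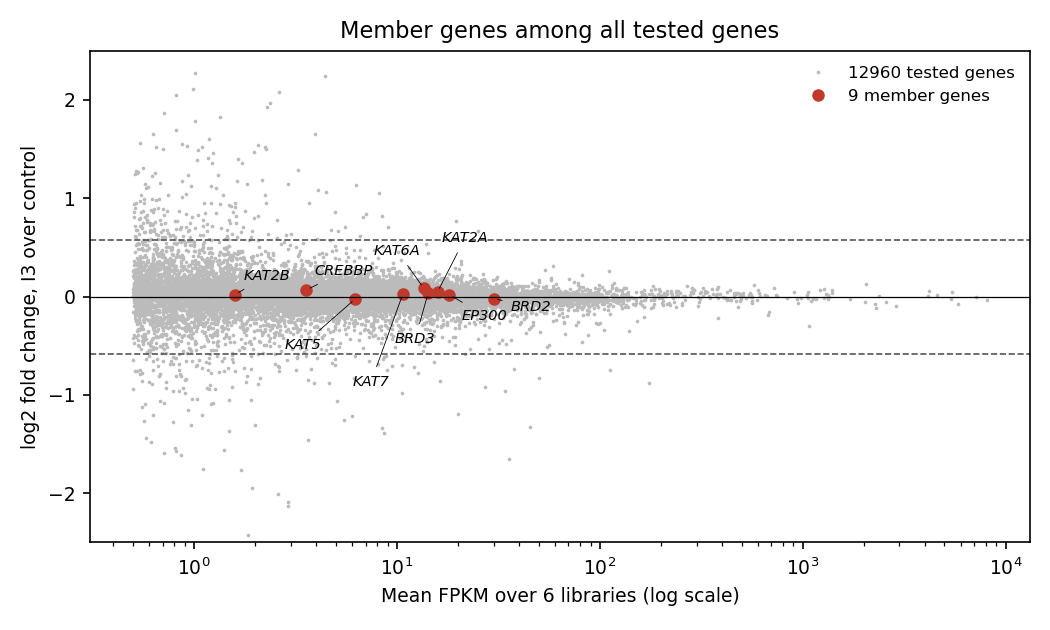
log2 fold change of I3 over control (vertical axis) against mean FPKM over the 6 libraries (horizontal axis, log scale) for 12960 tested genes in grey and the 9 genes in red. Dashed lines mark 0.58 in either direction, and the 9 genes lie between -0.022 and 0.084 at mean levels of 1.59 to 30.0 FPKM.

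Exons of EP300, KAT5, KAT7, BRD2 and BRD3 overlap those of a gene on the opposite strand, among them RNASEH2C for KAT5 and HLA-DMA for BRD2. The libraries were stranded, but no source used here says whether fragments were counted by strand, and so reads of the overlapping genes may be mixed. EP300, KAT2A, KAT7 and BRD2 also share exon bases with a gene on their own strand (MIR1281 for EP300 and ENSG00000267261 for KAT2A), which a count by strand would not separate. CREBBP, KAT2B and KAT6A overlap no exon of another gene.

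The relatives and partners of these genes were examined in 8 lists. Of their 124 genes, 117 had a mean of at least 0.5 FPKM. None of the 117 was called at the adjusted p by limma or by voom. At the unadjusted p, 1 was higher and 4 were lower after I3, against 2.08% higher and 2.85% lower of all tested genes, and together they are 4.27% of the 117 against 4.93%. The median log2 fold change was 0.014, against 0.011 over all tested genes, and the estimates ran from -0.35 to 0.20. In 12 of the 117 the groups did not overlap (10.3%, against 9.7% of all tested genes). Without control 1 the number at the unadjusted p was 17 (with 11.0% of all tested genes), and without I3 3 it was 1 (with 3.62% of all tested genes).

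Of the nearest relatives, KAT6B (MORF), the paralog of KAT6A, was at 13.3, 13.0 and 13.0 FPKM in the controls and at 13.6, 13.3 and 14.0 FPKM after I3. All I3 values stood above all control values, although I3 2 and control 1 were nearly level, and the log2 fold change was 0.057 (adjusted p = 0.998 from limma). BRDT, the testis member of the BET family, was listed at 0 in all 6 libraries. KAT8 (MOF), which acetylates histone H4, was at 4.21, 6.11 and 6.50 FPKM in the controls and at 5.72, 6.24 and 5.91 FPKM after I3. Control 1 stood apart as the lowest KAT8 value, and the log2 fold change of 0.10 turned to -0.076 without it.

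Of 15 other acetyltransferases, 1 was at the unadjusted p. This was NAA60, an N-terminal acetyltransferase of the Golgi, with 3.72, 5.04 and 3.94 FPKM in the controls and 3.04, 3.46 and 3.12 FPKM after I3 (log2 fold change -0.35, unadjusted p = 0.0207, adjusted p = 0.928 from limma). The groups did not overlap, and without control 2, the highest library, the log2 fold change was -0.23. NAA50, another N-terminal acetyltransferase, had a log2 fold change of 0.16 (adjusted p = 0.998 from limma).

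The 20 subunits of SAGA and ATAC, in which KAT2A and KAT2B act, had a median log2 fold change of 0.027, which was -0.021 with the GC trend removed and 0.0065 without control 3, with 11 estimates above and 9 below 0. ATXN7L3, an adaptor of the SAGA deubiquitinase, was at 20.4, 22.3 and 22.7 FPKM in the controls and at 18.6, 20.7 and 18.9 FPKM after I3 (log2 fold change -0.16, unadjusted p = 0.0479, adjusted p = 0.998 from limma). I3 2 was above control 1, so the groups overlapped. KAT14, the second acetyltransferase of ATAC, was at 7.52, 7.61 and 7.74 FPKM in the controls and at 8.87, 7.79 and 8.26 FPKM after I3, with no overlap of the groups and an adjusted p of 0.998 from limma. The 16 subunits of the TIP60 complex of KAT5 split evenly, 8 above and 8 below 0, with a median of -0.0030 that ran from -0.023 to 0.011 with single libraries left out. MRGBP (-0.11) and BRD8 (-0.093) had the smallest p without passing, and without I3 1 they came to -0.060 and -0.028. Of the 8 scaffolds that bind KAT6A, KAT6B and KAT7, 3 were above and 5 below 0. JADE3 (0.10) and BRPF3 (-0.070) had the smallest p of these scaffolds, and neither passed.

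The list of MOF complexes held 2 of its 11 genes at the unadjusted p (18.2%, against 4.93% of all tested genes), in opposite directions. MSL1, the scaffold of the MSL complex, was at 17.2, 16.1 and 17.3 FPKM in the controls and at 15.8, 14.4 and 14.0 FPKM after I3 (log2 fold change -0.19, unadjusted p = 0.0223, adjusted p = 0.938 from limma). OGT, the O-GlcNAc transferase found in the NSL complex, was at 20.9, 19.5 and 18.5 FPKM in the controls and at 21.3, 22.1 and 22.1 FPKM after I3 (log2 fold change 0.15, unadjusted p = 0.0449, adjusted p = 0.998 from limma). Control and I3 values did not overlap for either gene, nor for MSL3, which makes 3 of 11 (27.3%, against 9.7% of all tested genes).

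Of 14 tested BET relatives and elongation partners, 11 estimates were above and 3 below 0 and none was at the unadjusted p. HEXIM1, the inhibitor of P-TEFb, was at 26.2, 25.2 and 24.1 FPKM in the controls and at 23.4, 25.3 and 22.0 FPKM after I3, a log2 fold change of -0.094 (adjusted p = 0.998 from limma). CCNT1, the cyclin of P-TEFb, had a log2 fold change of 0.12 and AFF4, a scaffold of the super elongation complex, of 0.15, each with an adjusted p of 0.998 from limma. Among 26 other readers of acetyl-lysine, PBRM1 (0.11) and PHIP (0.17) had the smallest p, and none of the 26 was at the unadjusted p.

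The 7 tested genes of acetyl-CoA supply had a median log2 fold change of -0.041, with 5 estimates below 0, and the median ran from -0.061 to -0.020 with single libraries left out. SLC25A1, the carrier that exports citrate from mitochondria for acetyl-CoA synthesis, was at 117, 125 and 111 FPKM in the controls and at 106, 91.2 and 82.2 FPKM after I3. Every I3 value was below every control value, and its unadjusted p was the smallest of the 117 genes (log2 fold change -0.34, SE 0.0968, unadjusted p = 0.00942, adjusted p = 0.812 from limma). CRAT, carnitine acetyltransferase, had a log2 fold change of -0.070 (adjusted p = 0.998 from limma), which ran from -0.15 without I3 1 to -0.023 without I3 3.

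**Figure D5:**
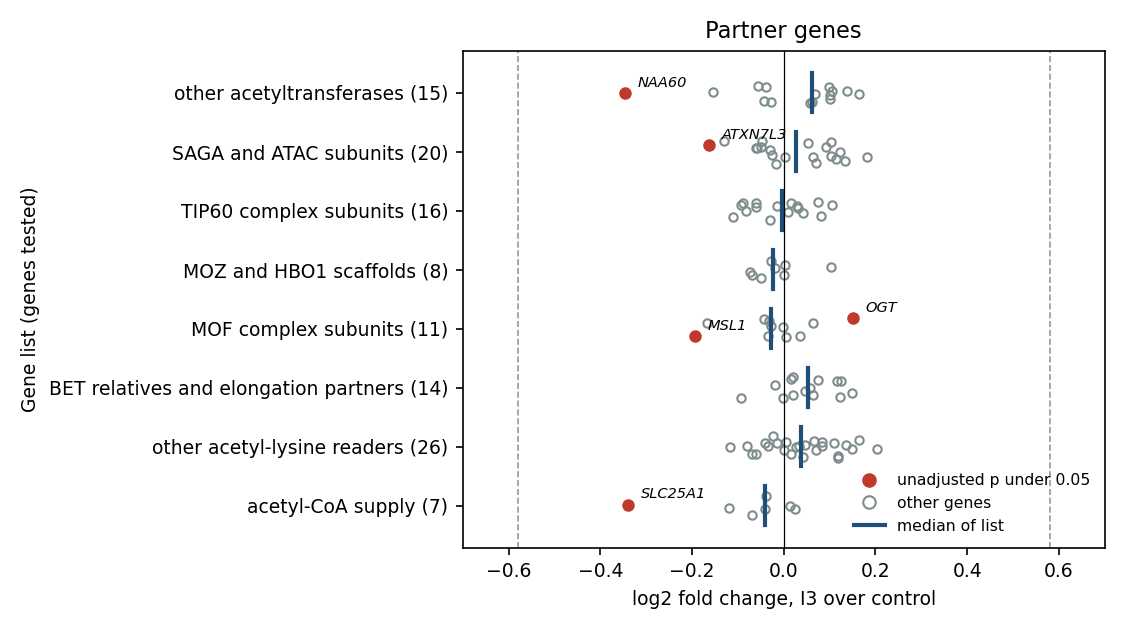
log2 fold change of I3 over control (horizontal axis) for the 117 tested partner genes in 8 lists, 1 circle per gene, with a bar at the median of each list. The 5 genes at an unadjusted p under 0.05 are filled and named, and every gene lies between the dashed lines at 0.58 in either direction.

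The genes whose levels over the 6 libraries were most like those of the most abundant member of each class were sought among 6641 genes with a mean of at least 5 FPKM. For EP300 these were CD320 (Pearson r = 0.992) and TRAPPC10 (0.992), and for KAT2A they were SAE1 (0.987) and DDA1 (0.984). For KAT6A they were PDHX (0.979) and SLC25A15 (0.972), and for BRD2 they were MT-RNR1 (0.994) and RPN1 (0.993). MT-RNR1 ran from 520 to 868 FPKM, a far wider spread than the 29.1 to 31.0 FPKM of BRD2. CD320, like EP300, was lowest in control 1, at 34.8 FPKM against 39.4 to 44.3 FPKM in the other 5 libraries. These values describe 6 libraries that share the differences between libraries given above, and high values are found when the best of 6641 genes are picked.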

How the data were processed

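mRNA-seq libraries of Kasumi-1 cells (3 control, 3 I3) were analysed. Per the labels, libraries were made with a stranded mRNA kit, and the submitters' processing notes name Trimmomatic, HISAT2, Cufflinks, HTSeq and the build hg38, without roles or versions. The authors deposited FPKM, 1 column per library, under a table name that gives the compound as I13. A legend in the paper gives 72 h in place of 48 h. No value column was left unmapped. The main test used FPKM and not counts, so the study's count test was replaced by limma 3.58.1 in R 4.3.3 (eBayes with trend, no covariates). It was run on log2(FPKM + 0.5), which understates changes of low genes, over 12960 genes with a mean of at least 0.5 FPKM, with Benjamini-Hochberg adjustment. Rebuilt counts served for voom and for the read ratios. Calls needed an adjusted p under 0.05 and a log2 fold change of 0.58. Reads were rebuilt from FPKM and GENCODE release 29 exon lengths, where 95.4% of 26609 genes above 0 came out whole within 0.1 read. For the printed reads of KAT6A, the length of 11852 bases was used instead. Libraries of a group were not copies (chi-square per degree of freedom of at least 4.36). Ratios were tested with exact permutation in scipy 1.17.1. Named were the 9 genes, the 2 smallest p-values of each partner list, HEXIM1, KAT6B, KAT8 and the 2 nearest patterns per class, and 1 further gene of the rule is not reported here. BRDT and MSL3 were named after their values were seen. Members and lists were chosen with earlier results of these data known. Other marker genes listed were not analysed here. The fit was tested on simulated data. Alternatives were pseudocounts of 0.1 and 1, no minimum and a minimum of 5 FPKM, TPM and median-of-ratios scaling, GC correction (lowess span 0.3), a replicate block, voom (mean of at least 10 reads) and each library left out.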

Additional observations from a re-analysis of the deposited data

How the results depend on the processing

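None of the 9 genes was called or had an unadjusted p under 0.05 in any of the 133 alternative fits of single members, whose smallest adjusted p was 0.676 and whose log2 fold changes ran from -0.077 to 0.12. The direction of CREBBP, KAT6A and BRD2 held in all of them, although CREBBP came to 0.028 without control 1 and 0.031 without I3 2, and BRD2 to -0.00064 and KAT7 to 0.0048 without control 3. Near 0, the sign of the others turned. With the GC trend removed, EP300 came to -0.013, KAT2B to -0.020 and KAT7 to -0.011, and the KAT5 to KAT7 ratio difference to 0.0063. With single libraries left out, EP300 ranged from -0.066 (without control 1) to 0.063, with -0.0019 without I3 2, KAT2A from -0.047 (without control 1) to 0.12, KAT2B from -0.077 (without control 3) to 0.084, with -0.045 without I3 3, KAT5 from -0.058 to 0.0051 (without I3 3), BRD3 from -0.043 (without I3 3) to 0.11, and KAT8 from -0.076 (without control 1) to 0.21. Among the other partner genes, single values were followed only for those named by rule, which leaves out MSL3. Their signs held in these fits, but sizes moved. Without 1 library, AFF4 came to 0.090 and BRPF3 to -0.029 (control 2), HEXIM1 to -0.046 and CCNT1 to 0.082 (I3 3), KAT14 to 0.068 (I3 1) and PHIP to 0.25 (control 1). With the GC trend removed, PHIP came to 0.060, CCNT1 to 0.075, PBRM1 to 0.068, KAT6B to 0.021 and CRAT to -0.014. The KAT2A to KAT2B difference ranged from -0.16 (without control 1) to 0.17, with -0.0047 without I3 1 and -0.069 without I3 2, the BRD2 to BRD3 difference from -0.13 to 0.0068 (without I3 3), the EP300 to CREBBP difference from -0.099 (without control 1) to -0.020 (without control 3), that of KAT6A to KAT7 from 0.023 to 0.12 and that of KAT5 to KAT7 from -0.074 to -0.011. The cause was not tested.

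Over the whole table, 0 to 2 genes were called with single libraries left out (1 without control 1, 2 without I3 1, 1 without I3 2) and 0 under every other alternative. The 639 genes at the unadjusted p (4.93% of 12960, 269 higher and 370 lower) became 1038 of 26609 without a minimum FPKM (3.90%, 545 higher). With a minimum of 5 FPKM they became 302 of 6642 (4.55%, 79 higher and 223 lower). The cause of the shift in direction was not tested. Rescaled to TPM, where 16857 genes passed the minimum, 419 were higher against 269. They ranged from 462 to 1420 with single libraries left out, with 196 to 946 higher (946 without control 1) and 238 to 474 lower (242 without control 2, 238 without I3 3). Groups did not overlap for 1257 genes, for 2008 without a minimum and for 604 with a minimum of 5 FPKM. Partner genes at the unadjusted p went from 5 to 8 with the GC trend removed, and to 1 to 17 with single libraries left out (17 without control 1, 2 without control 2, control 3 or I3 1, and 1 without I3 3).

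Control and I3 libraries share replicate numbers, but same-numbered libraries deviated together only weakly (correlations of 0.063, 0.15 and -0.024), so the numbers were not taken as pairs, and control 1 and control 3 each correlated best with a differently numbered I3 library. With a replicate block, 856 genes were at the unadjusted p, 0 were called, 0 of the 9 genes passed and the member log2 fold changes kept their values. Depth limits mainly KAT2B, with 129 to 184 reads per library.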
